A study of Homo sapiens with 4 samples.

Results

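The genes described here are those of the C/EBP family, CEBPA, CEBPB, CEBPD, CEBPE, CEBPG and CEBPZ, at which ATAC-seq, a transposase assay of open chromatin, was read out in Kasumi-1 cells. A peak was taken as a member when the deposited annotation named one of these 6 genes as its nearest gene, which gave 7 of the 20556 peaks of the authors' annotated deposited table. Peaks of the authors' library-level deposited table carry no annotation, and 5 of its 13577 peaks overlapped a member peak of the annotated table. Kasumi-1 is an acute myeloid leukaemia cell line with the t(8;21) translocation, which fuses RUNX1 to RUNX1T1. The groups were Kasumi-1 cells with SETD8 knocked out by CRISPR/Cas9 (labelled sgSETD8, genotype SETD8 knockout) and Kasumi-1 cells labelled sgNT (genotype WT), with 2 libraries in each group. SETD8, now named KMT5A, encodes the methyltransferase that places a single methyl group on lysine 20 of histone H4. The labels do not say whether the knockout was a clone or a pool, which guide was used, when cells were collected, or if the libraries numbered 2 are separate cultures.

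C/EBP proteins are transcription factors with a basic region that contacts DNA and a leucine zipper through which they pair with each other and with related bZIP proteins. In myeloid cells C/EBPα, encoded by CEBPA, drives granulocytic commitment, C/EBPε acts at terminal granulocyte maturation, and C/EBPβ and C/EBPδ respond to cytokines and inflammation. C/EBPγ, encoded by CEBPG, lacks a strong activation domain and works as a dimer partner. CEBPZ shares the name through an early report of CCAAT binding but is not a bZIP protein, and its yeast relatives act in ribosome assembly. The RUNX1-RUNX1T1 fusion protein is known to hold down CEBPA expression in t(8;21) leukaemia.

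The bases before 4 of the start sites are shown because the promoter peaks of these genes cover them completely. They comprise CEBPA and CEBPG, neighbours on chromosome 19, CEBPB, whose promoter had the smallest difference, and CEBPZ, whose promoter had the largest in the library-level table. RefSeq also lists a further start site for CEBPG (33374113) and for CEBPB (50190583), whose stretches are not shown. The further CEBPG stretch was completely covered too, so coverage does not set it apart. The annotated CEBPB peak covered 129 of the 250 bases of the further CEBPB stretch. Each line holds the 250 bases before a RefSeq start site in GRCh38.p14, read 5′ to 3′ along the gene, and capitals mark matches to the CCAAT box (reverse ATTGG), to the TGACG core (reverse CGTCA) and to the TATAAA box (reverse TTTATA), searched on both strands.
CEBPA promoter, chr19:33302535-33302784, minus strand: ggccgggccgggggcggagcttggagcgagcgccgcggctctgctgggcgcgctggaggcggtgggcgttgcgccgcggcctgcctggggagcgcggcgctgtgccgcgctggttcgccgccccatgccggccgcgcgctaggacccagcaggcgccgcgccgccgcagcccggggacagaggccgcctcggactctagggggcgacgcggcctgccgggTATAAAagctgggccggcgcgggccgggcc
CEBPB promoter, chr20:50190580-50190829, plus strand: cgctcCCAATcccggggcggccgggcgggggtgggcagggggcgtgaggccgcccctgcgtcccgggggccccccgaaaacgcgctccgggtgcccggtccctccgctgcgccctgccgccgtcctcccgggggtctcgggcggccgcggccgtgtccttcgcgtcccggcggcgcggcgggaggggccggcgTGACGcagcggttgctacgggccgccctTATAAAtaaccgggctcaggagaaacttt
CEBPG promoter, chr19:33373459-33373708, plus strand: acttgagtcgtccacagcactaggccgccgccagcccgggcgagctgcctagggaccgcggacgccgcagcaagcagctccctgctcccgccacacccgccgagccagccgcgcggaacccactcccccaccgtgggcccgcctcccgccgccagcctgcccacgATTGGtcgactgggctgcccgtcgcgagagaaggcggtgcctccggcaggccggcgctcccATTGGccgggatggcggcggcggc
CEBPZ promoter, chr2:37231597-37231846, minus strand: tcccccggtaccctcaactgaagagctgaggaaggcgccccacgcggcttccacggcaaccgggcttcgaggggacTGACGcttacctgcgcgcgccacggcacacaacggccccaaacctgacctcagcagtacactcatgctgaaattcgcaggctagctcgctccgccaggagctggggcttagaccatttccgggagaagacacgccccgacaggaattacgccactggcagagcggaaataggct
Positions count back from the start site. TATAAA began at position -30 of CEBPA and -29 of CEBPB, and 10.7% of the 35116 RefSeq promoter stretches of this length hold that motif. CEBPG had a pair of inverted CCAAT boxes, CEBPB had a single CCAAT, and CEBPA and CEBPZ had no match, against 32.0% of all promoters with at least 1. TGACG, a core of the cyclic AMP response element, occurred in CEBPB and CEBPZ and in 21.2% of all promoters. None of the 4 stretches held TTGCNNAA (reverse TTNNGCAA), a loose form of the C/EBP site that 9.05% of promoters hold. G and C made up 81.2% of the CEBPA stretch, 77.6% of the CEBPB stretch, 76.0% of the CEBPG stretch and 62.8% of the CEBPZ stretch, against a median of 58.0% over all promoters. These matches are those of the stretches shown, and the further CEBPG and CEBPB stretches held none of the marked motifs. A letter match is a description of the sequence and not evidence of binding.

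Accessibility was lower in SETD8 knockout than in sgNT at all 7 member peaks of the annotated table and all 5 of the library-level table, as it was at 92.3% and 98.6% of all peaks in the authors' deposited tables. The C/EBP genes did not share a single size of difference. The CEBPB promoter was the least lowered in the annotated table, CEBPZ was among the most lowered in the library-level table, and the CEBPA and CEBPD promoters lay on opposite sides of the table medians in the 2 tables. None of these differences passed a test. The middle of all peaks, as a log2 fold change of knockout minus sgNT, was -0.87 by the authors' annotated deposited table, with quartiles of -1.17 and -0.53, and -1.23 by the authors' library-level deposited table, with quartiles of -1.43 and -1.01. The scaling between libraries is not stated in what was used here, so most member values below are also given relative to their table's median. In the library-level table the knockout levels were found to be whole reads and the sgNT levels whole reads times 0.918. The factors behind the annotated table are not known. Bulk libraries cannot tell apart a site that is open in fewer cells from one that is less open in each cell.

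The library-level table names the knockout and sgNT libraries of replicate 2, which held 2091322 and 5345251 reads in peaks, with 125 and 323 reads at the median peak. The annotated table does not name its libraries, and its depth per library was not analysed here. Its levels below are those that the deposited mean level and fold change of a peak imply for knockout and sgNT. KMT5A itself had implied promoter levels of 375 in knockout and 663 in sgNT in the annotated table, and 251 in the knockout and 685 in the sgNT library of the library-level table. The KMT5A fold changes were -0.82 and -1.45 in the authors' deposited tables, or 0.05 and -0.22 relative to the table medians. Most peaks were lower in knockout, so the lower KMT5A levels do not check the labels. Editing of coding sequence can also leave a promoter peak as it was. Of 6 markers of the myeloblast identity of this line, CD34, KIT and SPI1 had a promoter peak in both tables, whereas no promoter peak carried the names CD33, MPO or RUNX1T1. Among markers of other lineages, a promoter peak carried the name of 3 of 4 T cell, 1 of 3 B cell, 1 of 3 erythroid, 1 of 3 epithelial and 0 of 2 hepatocyte genes in the annotated table, and the library-level table had such a peak for 1 T cell marker, CD8A. Their part in the C/EBP values was not tested. These marker counts were not set beside the share of all genes with a promoter peak.

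**Figure D1:**
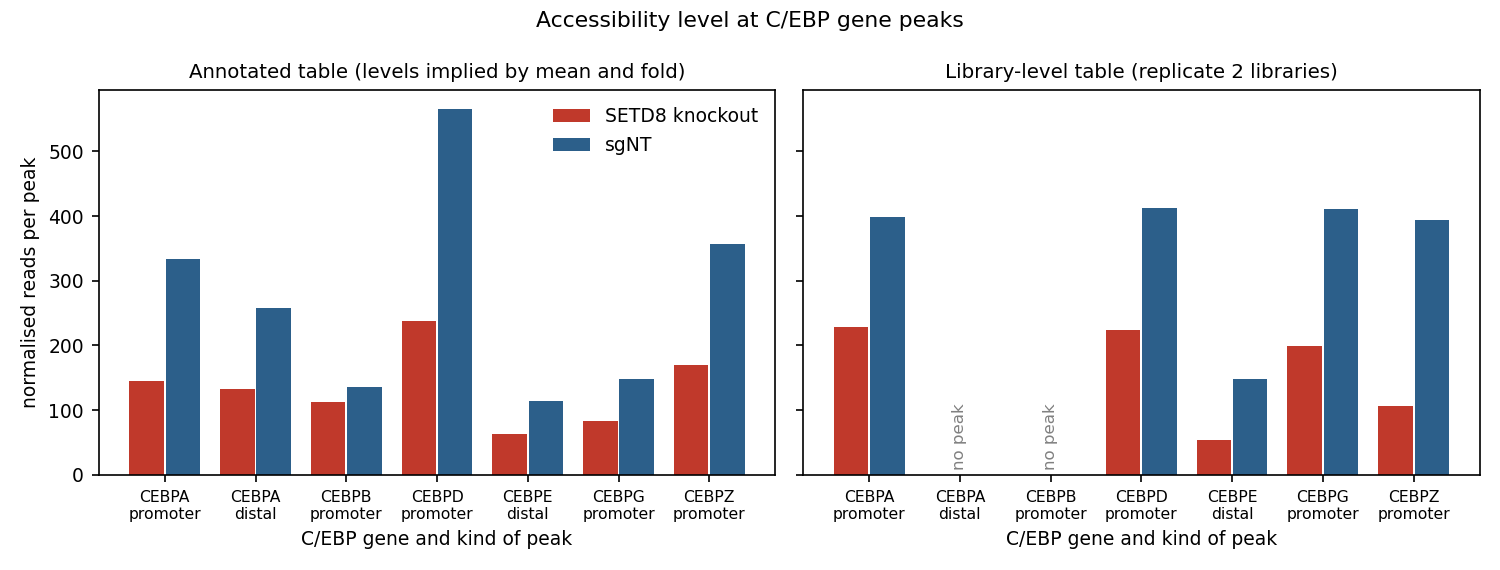
Normalised reads per peak (vertical axis) at each C/EBP gene peak (horizontal axis) for SETD8 knockout (red) and sgNT (blue); left, levels implied by the annotated table, right, the replicate 2 libraries of the library-level table, and "no peak" marks peaks of the annotated table that no peak of the library-level table overlapped. The knockout bar is shorter in every pair, and the pair nearest in height is CEBPB, at 112 and 135; the panels were scaled separately and bars are per peak, not per length.

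CEBPA, the myeloid master regulator, is a gene without introns on the minus strand of chromosome 19, from 33299934 to 33302534 in hg38. For its promoter peak at 33302284 to 33303161 the annotation also lists CEBPA-DT, a divergent noncoding RNA gene, as a flanking gene. The promoter had an implied level of 145 in knockout and 333 in sgNT in the annotated table, a log2 fold change of -1.20 by the authors' annotated deposited table (adjusted p = 0.731). The overlapping peak of the library-level table, with nearly the same ends, had levels of 229 in the knockout library and 399 in the sgNT library. Its fold change was -0.81 by the authors' library-level deposited table (adjusted p = 0.608), with a 95% interval from counting error alone of -1.04 to -0.57. Relative to the medians, CEBPA was therefore at -0.33 in the annotated table and at 0.42 in the library-level table, where its counting interval lay wholly above the median of -1.23.

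The other peak given to CEBPA was intergenic, at 33273477 to 33274503, with its centre 28.5 kb downstream of the start site. It had an implied level of 133 in knockout and 257 in sgNT, a fold change of -0.95 by the authors' annotated deposited table (adjusted p = 0.731). That is -0.08 relative to the median, so this distal site was close to the middle of all peaks. The CEBPA promoter, at -1.20, lay just below the lower quartile of -1.17. A further intergenic peak at 33260791 to 33261964, with its centre 41.2 kb downstream, was assigned to SLC7A10, an amino acid transporter gene, and is no member by the annotation. A myeloid enhancer of CEBPA is known from other work at about this distance downstream of the gene, and whether this peak is that enhancer was not tested. Its implied level was 90.1 in knockout and 150 in sgNT, a fold change of -0.74 by the authors' annotated deposited table, 0.13 above the median. Neither downstream peak was overlapped by a peak of the library-level table, so for them there is a value from the annotated table only.

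CEBPG, the dimer partner gene, lies upstream of CEBPA on chromosome 19, on the plus strand from 33373685 to 33382670 by the deposited annotation (the RefSeq start used for the sequence lies slightly further in), and its promoter peak is centred at -71.3 kb of the CEBPA start (negative is upstream). The peak at 33373457 to 33374171 had an implied level of 83.1 in knockout and 148 in sgNT, a fold change of -0.83 by the authors' annotated deposited table (adjusted p = 0.731). In the library-level table the wider peak at 33373319 to 33374320 had levels of 199 in the knockout library and 410 in the sgNT library, a fold change of -1.05 by the authors' library-level deposited table (adjusted p = 0.578). Its counting interval of -1.29 to -0.80 includes the median of that table. CEBPG was thus near the middle of all peaks in the annotated table, at 0.04 above the median. In the library-level table it was 0.18 above the median, and 70.4% of all peaks had a lower value. The order of the neighbours differed between tables: the CEBPA promoter had the lower fold change in the annotated table and CEBPG in the library-level table, where their counting intervals overlap.

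**Figure D2:**
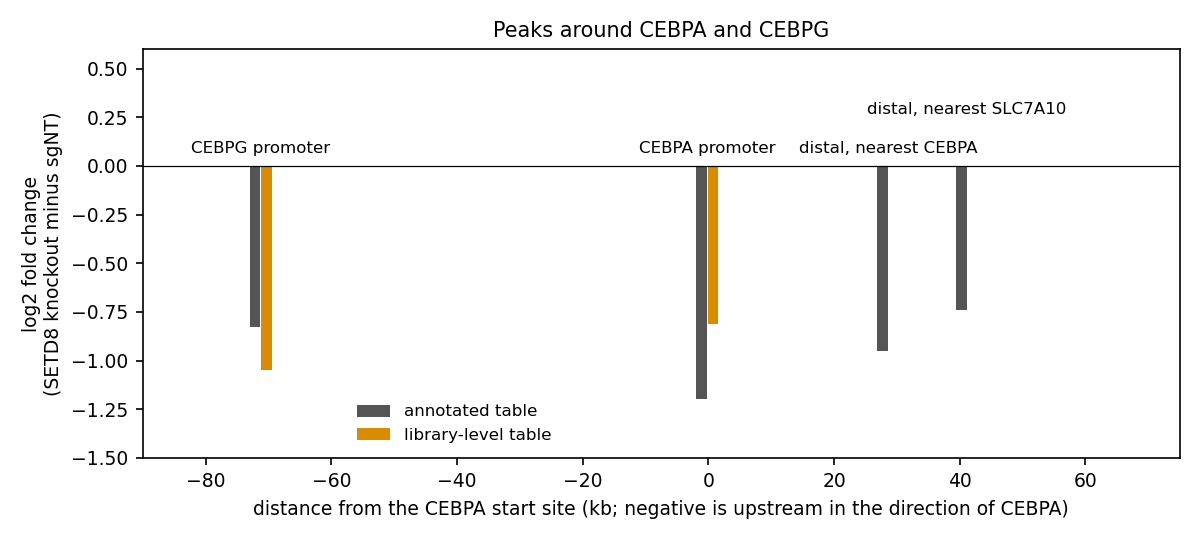
Log2 fold change of SETD8 knockout minus sgNT (vertical axis) at all peaks within 100 kb of the CEBPA start site, by distance of the peak centre from it in kb (horizontal axis, negative is upstream of CEBPA, bars widened for visibility and drawn side by side where both tables have a peak). Grey bars are the annotated table and orange bars the library-level table; the sites 41.2 and 28.5 kb downstream have grey bars only, at -0.74 and -0.95, and the CEBPA promoter has -1.20 and -0.81.

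CEBPB, a cytokine-responsive family member that is also an early regulator of adipocyte formation, is on the plus strand of chromosome 20 from 50190830 to 50192668. For its promoter peak at 50190454 to 50191230 the annotation lists CEBPB-AS1, an antisense RNA gene, as a flanking gene. The implied level was 112 in knockout and 135 in sgNT, the closest pair among the members. The fold change was -0.27 by the authors' annotated deposited table (p = 0.794, adjusted p = 0.868), or 0.60 above the median, and 85.8% of all peaks had a lower value. The other peaks within 2.5 Mb, 42 in number, had a median of -0.88 in the same table, so the value was 0.61 above its surroundings as well. No peak of the library-level table overlapped this promoter, and the value rests on the annotated table alone. The nearest peak with a value in both tables was an exon of the noncoding gene LINC01273, centred at -24.7 kb of the start, with -0.95 by the authors' annotated deposited table and -1.63 by the authors' library-level deposited table.

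CEBPD, whose product takes part in the acute-phase response, lies on the minus strand of chromosome 8 from 47736913 to 47738164. Its promoter peak at 47737278 to 47738969 covers most of this short gene, and the annotation lists the neighbouring gene SPIDR as flanking it. With 1692 bp the peak was wider than 99.6% of the peaks of the annotated table. The implied level was 238 in knockout and 566 in sgNT, a fold change of -1.25 by the authors' annotated deposited table (adjusted p = 0.731), the lowest of the 7 members there and -0.38 relative to the median. In the library-level table the 1981 bp peak had levels of 224 in the knockout library and 413 in the sgNT library, a fold change of -0.88 by the authors' library-level deposited table (adjusted p = 0.590). The counting interval of -1.12 to -0.65 lay above the table median, by which CEBPD was 0.35 higher. CEBPA and CEBPD thus had the same pattern: among the lower peaks of the annotated table and among the less lowered of the library-level table.

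CEBPE, the late granulocyte member, had no promoter peak in either table, and no neighbouring gene's promoter peak reached it. Its sole peak was intergenic, on chromosome 14 at 23112695 to 23113054, 6562 bp downstream of the start site at 23119616. In the mouse an enhancer of the gene is known a short way downstream, and whether this human site corresponds to it was not tested. The peak had an implied level of 63.7 in knockout and 115 in sgNT, a fold change of -0.85 by the authors' annotated deposited table (adjusted p = 0.731), within 0.02 of the median. The library-level table gave levels of 53.8 in the knockout library and 148 in the sgNT library, a fold change of -1.45 by the authors' library-level deposited table (adjusted p = 0.578). With 54 knockout reads the counting interval was wide, -1.93 to -0.9996, and included the median. Among the members this was the weakest peak in both tables by reads per peak, although per kb its sgNT level of 319 in the annotated table was above that of the CEBPB promoter, 174.

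CEBPZ, the family member by name only, is on the minus strand of chromosome 2 from 37201612 to 37231596. The gene lies head to head with NDUFAF7, which encodes an assembly factor of respiratory complex I. The annotation lists NDUFAF7 as a flanking gene of the CEBPZ promoter peak at 37231283 to 37231968. The implied level was 170 in knockout and 357 in sgNT, a fold change of -1.07 by the authors' annotated deposited table (adjusted p = 0.731). In the library-level table the levels were 107 in the knockout library and 393 in the sgNT library, a fold change of -1.88 by the authors' library-level deposited table (p = 0.171, adjusted p = 0.578). This was the lowest value of any member in either table, at -0.65 relative to the median, and 2.38% of all peaks had a lower one. Its counting interval of -2.20 to -1.57 lay below the table median and did not overlap those of CEBPA, CEBPD and CEBPG.

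The surroundings of CEBPZ were low too. The 33 other peaks within 2.5 Mb had a median of -1.20 by the authors' annotated deposited table and the 15 such peaks of the library-level table had -1.54, so that CEBPZ stood at 0.13 relative to its region in the annotated table and at -0.34 in the library-level table. Within 100 kb, the promoter of CEBPZOS, a gene named for lying opposite CEBPZ, had -1.72 by the authors' annotated deposited table, where its implied level was 94.2 in knockout and 310 in sgNT. The promoters of EIF2AK2, the double-stranded RNA sensor kinase PKR, had -1.19 and -1.36, and those of the protein kinase gene PRKD3 had -1.12 and -1.54 in the authors' deposited tables. The part of these regional values in the CEBPZ value was not tested. For the other members the regional medians were between -0.93 and -0.68 in the annotated table and between -1.32 and -1.16 in the library-level table.

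**Figure D3:**
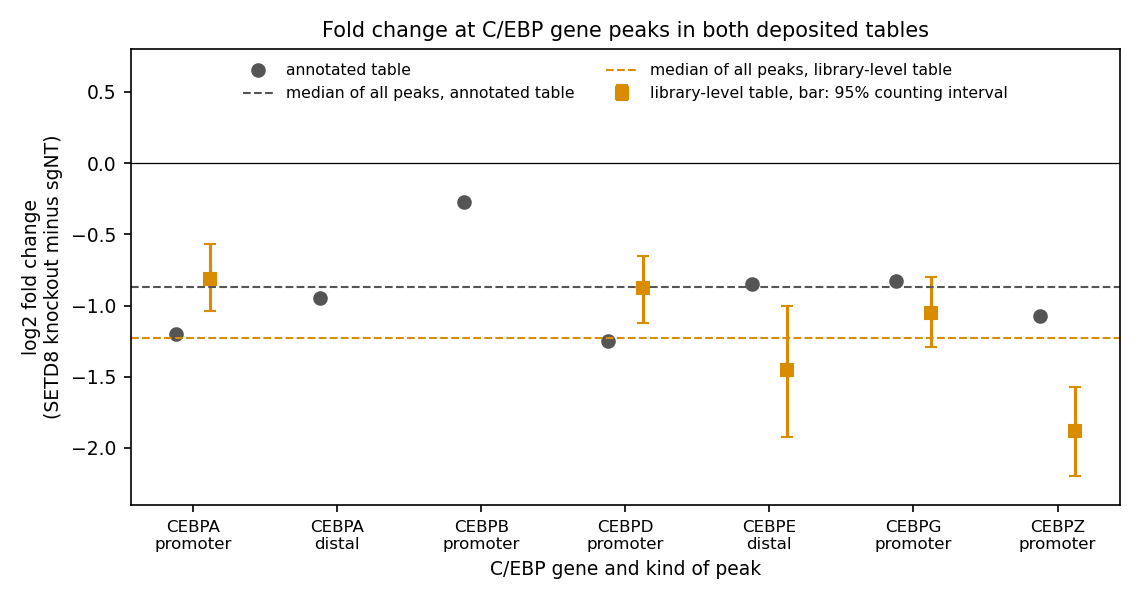
Log2 fold change of SETD8 knockout minus sgNT (vertical axis) for each member peak (horizontal axis) in the annotated table (grey circles, no interval) and the library-level table (orange squares, bars are 95% intervals from counting error only); dashed lines are the medians of all peaks, -0.87 and -1.23. CEBPA and CEBPD lie below the grey line and above the orange one, CEBPZ lies below both, and CEBPB is the point nearest 0.

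Members were also counted against a fixed size, beside the share of all peaks that met it. A fold change of -1 or lower was found at 3 of 7 member peaks in the annotated table, the promoters of CEBPA, CEBPD and CEBPZ, where 38.9% of all peaks met it. It was found at 3 of 5 in the library-level table, the promoters of CEBPG and CEBPZ and the CEBPE site, where 76.1% of all peaks met it. Among promoters alone the counts were 3 of 5 against 42.0% of promoter peaks in the annotated table, and 2 of 4 against 82.8% in the library-level table. CEBPZ was the member that met this size in both tables. The median of the member promoters was -1.07 in the annotated table and -0.965 in the library-level table, beside -0.92 and -1.26 over all promoter peaks of the authors' deposited tables.

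No member passed the authors' test, and neither did any other peak. An adjusted p under 0.05 was reached by 0% of peaks in both tables, and the smallest was 0.731 by the authors' annotated deposited table and 0.578 by the authors' library-level deposited table. An unadjusted p under 0.05 was reached by 1.60% of peaks in the annotated table and by 0.140% in the library-level table. The unadjusted p of the members ran from 0.242 to 0.794 in the annotated table and from 0.171 to 0.549 in the library-level table. With 1 library per group in the library-level table there is no replicate spread to set a difference against, and its p-values do not show that sites were alike. The annotated table does not name its libraries, so whether its p-values rest on replicates is not known. They do not show that sites were alike either.

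In order of fold change, CEBPA, CEBPD, CEBPG, CEBPE and CEBPZ ran from highest to lowest in the library-level table, and the counting intervals of neighbours in this order overlapped at each step. With no replicate spread, values can be set side by side between tables, although it is not stated whether they share libraries. Over 11117 joined peaks, the fold change relative to the median in the library-level table minus that in the annotated table had quartiles of -0.25 and 0.33, and the central 95% of peaks ran from -0.85 to 0.98. The same difference was 0.75 for CEBPA, 0.73 for CEBPD, 0.14 for CEBPG, -0.24 for CEBPE and -0.45 for CEBPZ. All 5 were inside that central range. Of joined peaks, 10.3% differed by as much as CEBPA or more, 11.1% as much as CEBPD, 30.9% as much as CEBPZ, 58.4% as much as CEBPE and 75.3% as much as CEBPG.

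**Figure D4:**
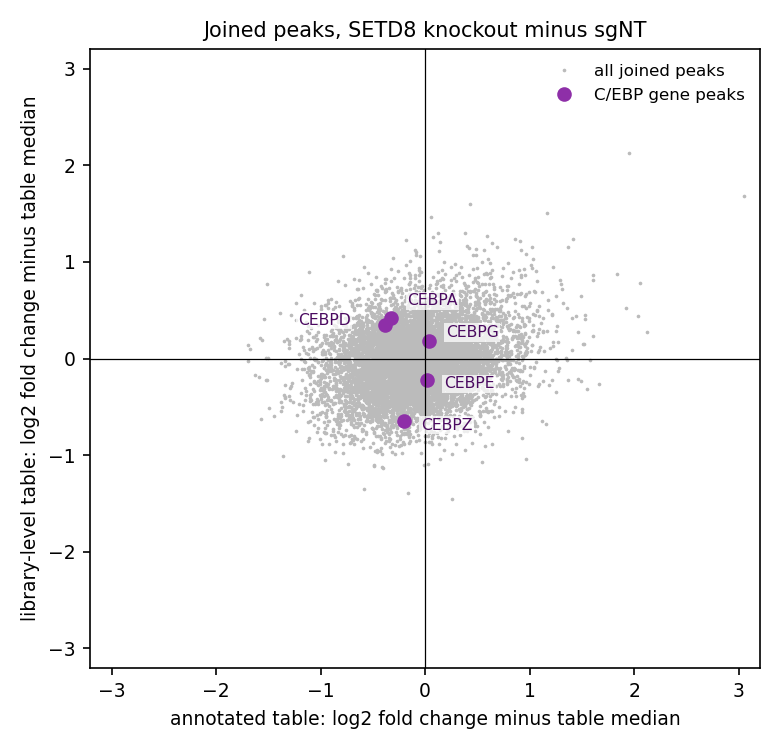
Fold change of SETD8 knockout minus sgNT relative to the table median, on the log2 scale, in the annotated table (horizontal axis) and the library-level table (vertical axis), with each joined peak as a grey dot and the 5 joined C/EBP gene peaks in purple. CEBPA (-0.33 and 0.42) and CEBPD (-0.38 and 0.35) sit together at upper left, CEBPZ (-0.20 and -0.65) at lower left, and all 5 lie inside the cloud.

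The order of the members was the same in the library-level table when peaks were compared with others of similar strength. Peaks were split by mean level into 20 equal bins, and relative to the median of their own bin CEBPA stood at 0.47, CEBPD at 0.40, CEBPG at 0.23, CEBPE at -0.30 and CEBPZ at -0.61 in that table. In the annotated table CEBPB stood at 0.62, CEBPD at -0.27 and CEBPA at -0.23 relative to their bins. Per kb of peak, the CEBPZ promoter was the most open in sgNT in both tables, at an implied 520 in the annotated table and 454 in the library-level table, where CEBPA followed closely at 453. The knockout levels per kb of these were 248 for CEBPZ in the annotated table and, in the library-level table, 123 for CEBPZ and 260 for CEBPA.

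Genes that work with the family were described by the strongest promoter peak that carried their name, from lists chosen for their role. The share of all genes with a promoter peak was not counted. The numbers of listed genes with a peak therefore have no such share beside them. Of 9 bZIP partner genes 7 had such a peak in each table, with a median of -0.94 in the annotated table and -1.13 in the library-level table, and 2 and 6 of them had a fold change of -1 or lower, a size met by 42.0% and 82.8% of all promoter peaks. In the authors' annotated deposited table these ran from -1.17 for BATF3, a dendritic cell factor, to -0.62 for ATF5, a stress response factor. In the authors' library-level deposited table they ran from -1.42 for JUN, a core AP-1 subunit, to -0.72 for BATF3, which was thus lowest in the annotated table and highest in the library-level table. DDIT3, which encodes the C/EBP inhibitor CHOP, had no peak under its own name, but the promoter peaks named MARS1 and MBD6 list it among their flanking genes.

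Of 11 regulators of C/EBP level or activity, 9 had a promoter peak in the annotated table and 8 in the library-level table, with medians of -1.10 and -1.28, and 6 and 5 had -1 or lower, beside the same 42.0% and 82.8%. SPI1, which encodes the myeloid factor PU.1, was the lowest of them at -1.41 by the authors' annotated deposited table, and had -0.97 by the authors' library-level deposited table. Its levels in the library-level table were 139 in the knockout library and 272 in the sgNT library. RUNX1, which directly regulates CEBPA and whose strongest promoter peaks in the 2 tables are different sites, had -1.20 by the authors' annotated deposited table and, as the highest of the list, -0.74 by the authors' library-level deposited table. GFI1, a repressor in granulocyte development, was highest in the annotated table at -0.24, and TRIB2, which directs C/EBPα to degradation, was lowest in the library-level table at -1.84 in the authors' deposited tables.

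Myeloid genes that C/EBP proteins are known to activate were mostly without a promoter peak. Of 20 such genes 5 had one in the annotated table (CSF1R, IL6R, CTSG, LTF and ITGAM) and 2 in the library-level table (IL6R and ITGAM). CSF3R, the granulocyte colony-stimulating factor receptor gene, had none. Whether these target genes lacked a promoter peak more often than other genes was not tested. The 5 had a median of -0.60 and 0 had -1 or lower, beside 42.0% of all promoter peaks there, with -0.98 at CTSG, the cathepsin G gene, and -0.20 at LTF, the lactoferrin gene, as the extremes by the authors' annotated deposited table. The mean levels of these 5 peaks ran from 50.9 at CSF1R to 121 at IL6R, below the median of 142 over all peaks of the annotated table. IL6R and ITGAM had -1.69 and -1.14 by the authors' library-level deposited table. There 2 of 2 had -1 or lower, beside 82.8% of all promoter peaks. No gene of the 3 lists passed an adjusted p of 0.05 in either table.

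**Figure D5:**
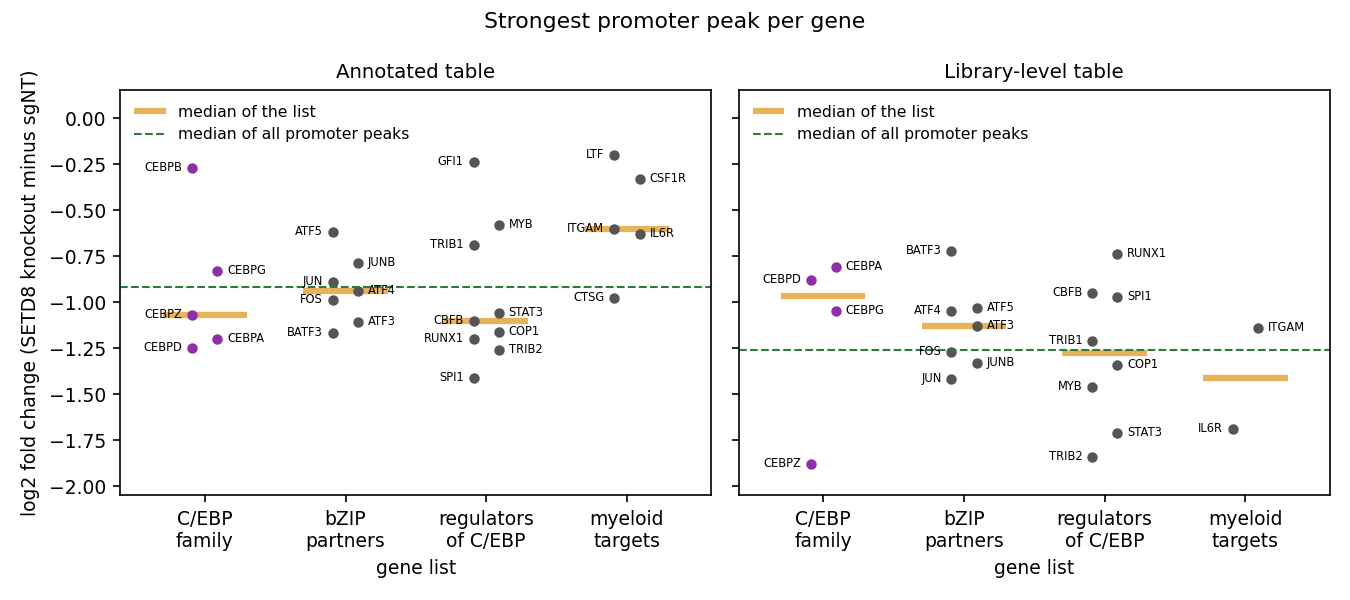
Log2 fold change of SETD8 knockout minus sgNT at the strongest promoter peak of each gene (vertical axis) for the C/EBP family (purple) and the 3 lists of related genes (grey) in the annotated table (left) and the library-level table (right); thick lines are list medians and the dashed line the median of all promoter peaks, -0.92 and -1.26. The family spans -1.25 to -0.27 at left and -1.88 to -0.81 at right, with the other lists spread over much the same range.

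The promoters most like each member were sought among 8379 genes with a joined promoter peak, by Euclidean distance over 4 measures, the mean level and the fold change in each table. LRRC14 was nearest to CEBPA at a distance of 0.173 interquartile ranges, with fold changes of -1.13 and -0.81 in the authors' deposited tables. KLHDC2 was nearest to CEBPD at 0.150, with -1.28 and -0.88, ANKLE1 to CEBPG at 0.231, with -0.88 and -1.02, and SUPT4H1 to CEBPZ at 0.244, with -1.11 and -1.86 in the authors' deposited tables. Such distances are over 4 values only and describe likeness of these values.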

How the data were processed

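ATAC-seq libraries of Kasumi-1 cells, 2 SETD8 knockout and 2 sgNT, were grouped by their titles. Tools listed in the submitters' processing notes are MACS2 2.1.2, Bowtie2, cutadapt, ChIPseeker, SAMtools and deepTools, with hg38 as the build. Read shifting, duplicate removal and library scaling are not given in the sources used here. As deposited, 2 tables hold log2 mean levels, log2 fold changes, p-values and adjusted p-values per peak. In the annotated one, whose columns have no names, these were identified by order and range, and its fold change was taken as treated over control from the table's title. Its 2 per-sample columns were not used. Levels implied by it follow from the mean and the fold change, an identity that holds in the library-level table within 0.00954. Per the file headers the library-level table gives log2 levels of the knockout and sgNT libraries numbered 2. Knockout levels were whole reads and sgNT levels whole reads times 0.918, within 0.005 on the log2 scale for 100% of 741 and 205 weak values, so reads are known to about that rounding. Intervals are exact binomial (Clopper-Pearson, 95%) and cover counting error only.

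The planned edgeR test needed read counts of every library and was not run, and the authors' p-values stand. Peaks were joined by at least 1 bp, each library-level peak annotated by the annotated peak with the longest overlap. Promoter means within 3 kb of a start site by the annotation. All member peaks are named, and for the lists the extremes plus RUNX1, SPI1, DDIT3 and CSF3R. Within 100 kb of each start site, other peaks were counted and up to 3 of the strongest per member were named. The members and lists were chosen with earlier results of these data known. Promoter sequences are from RefSeq, GRCh38.p14, with entries for CEBPA, CEBPB, CEBPE, CEBPG and CEBPZ. Python 3.11.15, numpy 2.4.6, pandas 2.3.3, scipy 1.17.1 and matplotlib 3.10.9 were used, and joining, trend removal and intervals were tested on simulated data.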

Additional observations from a re-analysis of the deposited data

How the results depend on the processing

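Centring on the table median left 0 member peaks lower by at least 1 in both tables, and moved the median of member promoters to -0.20 in the annotated table and 0.265 in the library-level table. Rescaling the library-level table by each library's total reads in peaks gave the same, 0 peaks and 0.265, because that factor equals the median shift. A fold size of 0.5 in place of 1 raised the counts to 6 of 7 and 5 of 5. Most peaks of both tables met that size too, as the upper quartiles of all peaks were -0.53 and -1.01. Taking all peaks within 100 kb of a member start site gave 7 of 20 and 11 of 14, beside 38.9% and 76.1% of all peaks. The promoter median was then -1.33 in the library-level table, beside -1.26 over all its promoter peaks. The other alternatives (level trend, level filter, promoters within 1 kb, joining at 50% overlap, and, chosen after the data were seen, the regional trend and the promoters without CEBPB) kept counts within 1.5 times and medians within 0.304, which is the spread of joined peaks between tables (a robust SD of 0.430) divided by the square root of 2. No paired analysis was possible because named libraries have levels for replicate 2 only, and the 2 per-sample columns of the annotated table, which carry no names, were not used; leaving out a replicate was not run for the same reason. Depth limits the library-level table most at CEBPE, with 54 knockout reads.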

Other observations

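Within 100 kb of the C/EBP start sites the annotated table held 13 peaks that the annotation gives to other genes, with fold changes from -1.72 to 0.32. Of these, 4 had -1 or lower, beside 38.9% of all peaks there. The library-level table held 9 that are no members, 5 given to other genes and 4 without annotation, from -1.76 to -0.89. Of these, 8 had -1 or lower, beside 76.1% of all peaks there. The values above 0 in the annotated table were at weak promoter peaks named UBE2V1 on chromosome 20, at 0.32 with an implied level of 76.2 in knockout and 61.0 in sgNT, and SULT6B1 on chromosome 2, at 0.11 with 40.1 in knockout and 37.1 in sgNT, by the authors' annotated deposited table. Both were chosen after their values were seen. The strongest peak near CEBPE was the promoter of ACIN1, a chromatin condensation and splicing factor gene, with levels of 315 in the knockout library and 826 in the sgNT library and fold changes of -0.93 and -1.39 in the authors' deposited tables. PSMB5, a proteasome subunit gene, had a promoter peak at -1.08 by the authors' annotated deposited table. Near CEBPB the promoter peak named TMEM189 had -0.90 and -1.30 in the authors' deposited tables, a stronger UBE2V1 promoter peak had -0.81 by the authors' annotated deposited table, and a site without annotation at 50115874 to 50116177 had -1.76 by the authors' library-level deposited table. Near CEBPE, sites without annotation at 23071309 to 23071764 and at 23057404 to 23057802 had -1.54 and -1.13 by the authors' library-level deposited table. A site 3.10 kb downstream of the CEBPD start, given to SPIDR, had -0.79 by the authors' annotated deposited table, with an implied level of 93.2 in knockout and 161 in sgNT.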
